A study of Mus musculus with 2 samples.

Results

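Genes that write, copy or remove DNA methylation, or that supply or assist those enzymes, were followed here in erythroid progenitors of wild-type (WT) mice and of mice that lack the endothelial cell-selective adhesion molecule (ESAM-KO). They are the DNA methyltransferases Dnmt1, Dnmt3a and Dnmt3b, the methylation copying factor Uhrf1, the oxidases Tet1, Tet2 and Tet3, the isocitrate dehydrogenases Idh1 and Idh2, and the chromatin protein Asxl1. They were taken by name, every probe whose RefSeq accession belongs to one of them was used, and all 10 were found among 20660 named genes on the array, with 17 probes in all. By the probe of highest signal, 6 members were higher and 4 lower in ESAM-KO after scaling (7 higher without it). The ratios of 3 of the 10 were smaller than the scanner software's error. The probes of Dnmt3b, Tet1 and Tet2 differed in direction. Dnmt3a was higher by 2.51-fold and Tet3 lower by 2.42-fold. These were the 2 members past 2-fold, where 15.4% of all 14136 genes with a ratio were. The Dnmt3a ratio rests on 1 dim spot, and the second Tet3 probe was lower by only 1.39-fold.

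The mice were C57BL/6, per the labels of both arrays, and were either WT or ESAM-KO. The study's methods give an age of 8 to 12 weeks and describe ESAM-KO mice as homozygotes from heterozygous matings, and they give no sex for these pools. Every mouse received 1 injection of 120 mg/kg of 5-fluorouracil (5-FU), a drug that kills dividing marrow cells, and was killed 8 days later, and no untreated array was compared. From femora and tibiae, pre CFU-E, the progenitors just before the erythroid colony-forming unit, were sorted as Lin-, FcγRII/III-/Lo, CD41Lo, c-Kit+, Sca1-, endoglin+ and CD150+ cells. The cells of 3 mice were pooled for each genotype and measured on 1 Agilent mouse array. ESAM was missing from all cells of the ESAM-KO mice, not from blood cells alone.

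Each genotype was measured once, so SDs and p-values cannot be given, and genotype cannot be told apart from pool, sort, amplification or array. Fewer cells of a type and less RNA per cell cannot be told apart in such bulk samples either. The error printed after ± is the scanner software's own error of the spot, and for a log2 ratio the same error carried over from both arrays. For the genes Tfrc (9 spots), Kit (2 spots) and Pecam1 (2 spots), spot errors were combined as if independent. The errors printed for those genes are therefore smaller than for probes of 1 spot. Between 57.3% (WT) and 61.1% (ESAM-KO) of 59305 spots were well above background and 0 were saturated. The 75th percentile of intensity, to which each array was scaled, was 201.4 for WT and 251.1 for ESAM-KO. Intensities below are printed as deposited, while ratios are printed after scaling, which lowers every log2 ratio by 0.32. The Esam probe, the check on the genotype, read 27.4 ± 3.74 in WT against 20.6 ± 3.38 in ESAM-KO, for a log2 ratio of -0.73 ± 0.31. That probe is dim on both arrays, and where it lies relative to the deleted part of the gene is not given in the sources used here, so it does not check the labels.

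Cytosine methylation in mammals sits mostly on CG dinucleotides. DNMT3A and DNMT3B place methyl groups on unmethylated DNA, whereas DNMT1, brought to newly copied DNA by UHRF1, restores the mark on the new strand after replication. TET enzymes oxidise 5-methylcytosine with 2-oxoglutarate, iron and oxygen, and the oxidised bases are lost during replication or cut out by repair. IDH1 in the cytosol and IDH2 in mitochondria make 2-oxoglutarate, and their mutant forms in leukaemia make 2-hydroxyglutarate, which inhibits TET enzymes. ASXL1 is a partner of the deubiquitinase BAP1 and of Polycomb complexes. It acts on histones, not on DNA, and is grouped with these genes because DNMT3A, TET2, IDH1, IDH2 and ASXL1 are recurrently mutated in clonal hematopoiesis and myeloid disease. In erythroid cells, DNA methylation falls across the genome as maturation proceeds.

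The sequences upstream of Dnmt3a and Tet3, the members past 2-fold, are shown with each CG in capitals, because CG is the dinucleotide that these enzymes act on. They are the 250 bases before the start of a RefSeq transcript, on assembly GRCm38.p6, read along the strand of the gene. The first Dnmt3a stretch, on the plus strand at chr12:3806730-3806979, holds 38 CG. The second lies before an internal start of Dnmt3a on the plus strand at chr12:3891494-3891743 and holds 15 CG. Another RefSeq start of Dnmt3a, at chr12:3806910-3807159 with 40 CG before it, is not shown because its stretch overlaps the first. The Tet3 stretch, on the minus strand at chr6:83441679-83441928, holds 17 CG.

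Dnmt3a, first start: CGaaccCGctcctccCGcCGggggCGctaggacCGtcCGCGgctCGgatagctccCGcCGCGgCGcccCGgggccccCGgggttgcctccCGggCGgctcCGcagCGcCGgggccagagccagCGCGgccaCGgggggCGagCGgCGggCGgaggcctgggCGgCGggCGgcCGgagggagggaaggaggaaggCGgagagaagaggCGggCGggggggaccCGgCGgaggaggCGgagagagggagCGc

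Dnmt3a, internal start: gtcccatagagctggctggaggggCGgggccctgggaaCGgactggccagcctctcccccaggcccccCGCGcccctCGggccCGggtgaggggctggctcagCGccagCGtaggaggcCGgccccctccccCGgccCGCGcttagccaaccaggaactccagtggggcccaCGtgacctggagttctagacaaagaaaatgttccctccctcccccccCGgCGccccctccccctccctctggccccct

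Tet3: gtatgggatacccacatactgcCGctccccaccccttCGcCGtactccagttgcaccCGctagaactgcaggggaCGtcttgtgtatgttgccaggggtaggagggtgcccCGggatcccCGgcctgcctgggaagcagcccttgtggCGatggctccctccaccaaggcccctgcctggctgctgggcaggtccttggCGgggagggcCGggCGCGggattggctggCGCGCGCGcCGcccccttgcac

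Which of the 3 Dnmt3a starts gave rise to the RNA on the array is not known, since the probe is named by a transcript accession only. In windows of 300 bases (250 before and 50 after each start), the median over 32841 windows of 27018 genes was 7 CG. The 16 windows of the 10 members held from 2 to 57 CG with a median of 22.5, and 15 of them were above that overall median. Tet2 held the 57 at chr3:133544341-133544640, more than 99.8% of all windows. The GATA motif (AGATAA or TGATAA, either strand), the site type read by the erythroid factor GATA1, was in 18.6% of all windows and in 0 of the 16 member windows. The E2F motif (TTTCGCGC or TTTGGCGC, either strand), common at genes of DNA replication, was in 0.813% of all windows. It was found in 2 member windows, that of Dnmt1 at chr9:20952574-20952873 with 2 matches that do not overlap and that of Uhrf1 at chr17:56304063-56304362 with 1 match. These are letters in a window, not sites at which a factor was measured.

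Maintenance of methylation was read by 1 Dnmt1 probe and 2 Uhrf1 probes, all lower in ESAM-KO after scaling. Dnmt1, the copying methyltransferase, read 565 ± 56.5 in WT against 416 ± 41.7 in ESAM-KO. Its log2 ratio was -0.76 ± 0.20, which is 1.69-fold lower and 3.72 times its error, and it was also lower without scaling, at -0.44. Uhrf1 encodes the protein that recognises hemimethylated CG and recruits DNMT1. Its first probe read 8114 ± 811 in WT against 8069 ± 807 in ESAM-KO, so the deposited intensities were nearly equal. After scaling its log2 ratio was -0.33 ± 0.20, and without scaling it was -0.01. The second Uhrf1 probe, named by another transcript accession, read 6817 ± 682 in WT against 5062 ± 506 in ESAM-KO, for a log2 ratio of -0.75 ± 0.20. Both Uhrf1 probes were thus lower, with a gap of 0.42 between their log2 ratios, about that of other genes with 2 probes (median 0.42 over 2568 genes). For Uhrf1 the probe of higher signal, the first, stands for the gene below.

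**Figure D1:**
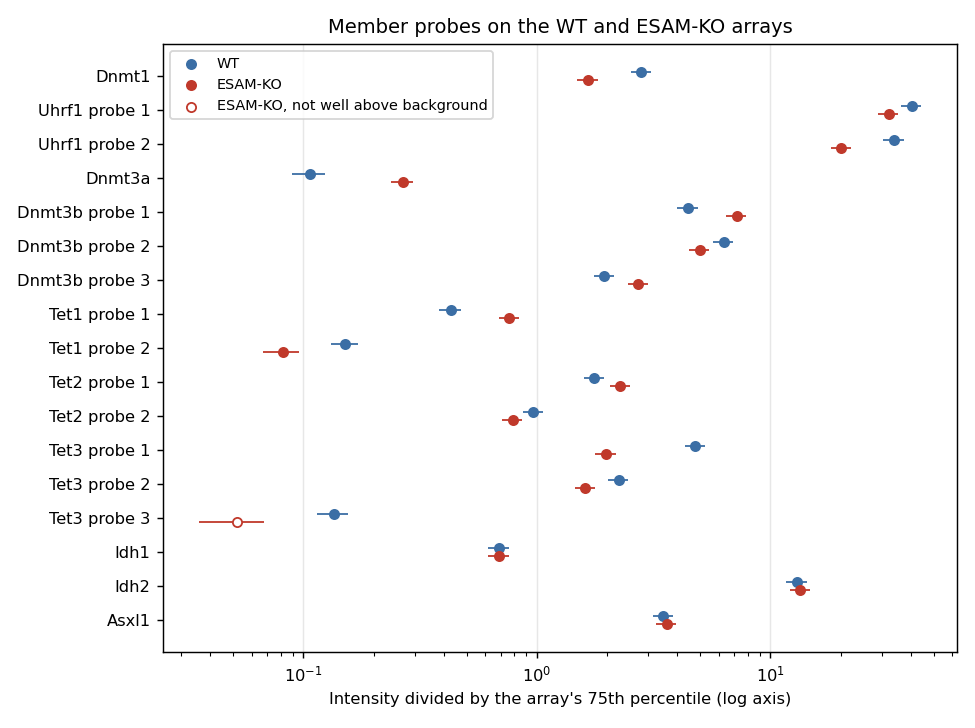
Intensity of each of the 17 member probes divided by the 75th percentile of its array (x, log axis), for WT (blue) and ESAM-KO (red), with bars for the scanner software's error and an open point where the probe was not well above background. Dnmt3a lies to the right in ESAM-KO, all 3 Tet3 probes lie to the left, and the points of Idh1, Idh2 and Asxl1 nearly coincide; positions of different probes are not comparable.

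The de novo methyltransferases were both higher in ESAM-KO by the probe of highest signal, but the Dnmt3b probes differed in direction. Dnmt3a read 21.4 ± 3.46 in WT against 67.0 ± 7.29 in ESAM-KO, for a log2 ratio of 1.33 ± 0.28. This was the largest ratio upwards among the members, 4.72 times its error, and it rests on 1 probe of 1 spot. That probe is dim: the lowest intensity counted as well above background was 12.6 on the WT array. With another background correction (normexp, followed by quantile normalization) the log2 ratio of Dnmt3a was 0.41, no longer past 2-fold. It was past 2-fold under the other 11 of 12 processing alternatives, some of which could not change it.

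Dnmt3b has 3 probes, all named by the same transcript accession. The first read 893 ± 89.4 in WT against 1802 ± 180.2 in ESAM-KO, for a log2 ratio of 0.69 ± 0.20, or 1.62-fold higher. The third was higher too, from 392.3 ± 39.4 to 684 ± 68.4, with a log2 ratio of 0.48 ± 0.20. The second read 1269 ± 127 in WT against 1251 ± 125 in ESAM-KO, for a log2 ratio of -0.34 ± 0.20, and -0.02 without scaling. The range of 1.03 between the Dnmt3b probes was wider than in 62.7% of the 415 genes with 3 probes measured on both arrays. The first and second probes had nearly the same geometric mean intensity, so the choice of the first to stand for Dnmt3b was close. The mean of the 3 probes was 0.28, against 0.69 for the first alone. The size and the direction of the Dnmt3b difference thus depend on the probe.

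The TET genes, which encode the enzymes that start the removal of methylation, did not share a direction. Tet3 was lower in ESAM-KO by all 3 of its probes. Its first probe read 962 ± 96.3 in WT against 496 ± 49.7 in ESAM-KO, for a log2 ratio of -1.28 ± 0.20, which was 6.24 times its error. The second Tet3 probe read 451 ± 45.2 in WT against 405 ± 40.7 in ESAM-KO, for a log2 ratio of -0.47 ± 0.20. The third read 27.2 ± 4.18 in WT against 13.02 ± 4.02, not well above background, in ESAM-KO. Its ratio is therefore a bound, at least 2.58-fold lower, where the dim array was taken at the higher of its own value and the lowest intensity well above background. For Tet3, then, the direction was common to the probes and the size was not. Without scaling the first Tet3 probe was at -0.96, just short of 2-fold. Tet3 was past 2-fold under the other 11 of 12 alternatives, some of which could not change its ratio.

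Tet1 has 2 probes of one accession, and they lay on opposite sides of 0. The first read 86.2 ± 9.12 in WT against 192 ± 19.4 in ESAM-KO, for a log2 ratio of 0.83 ± 0.21. The second, dimmer on both arrays, read 30.5 ± 4.18 in WT against 20.5 ± 3.65 in ESAM-KO, for a log2 ratio of -0.89 ± 0.32. Each of these ratios was over 2 times its own error, in opposite directions. The gap of 1.72 was wider than in 93.0% of genes with 2 probes, and the mean of both was -0.03. No direction can be given for Tet1 as a gene from these arrays.

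Tet2, the TET gene most often mutated in myeloid disease, was within 1.5-fold by both probes. The first read 355 ± 35.6 in WT against 573 ± 57.3 in ESAM-KO, for a log2 ratio of 0.37 ± 0.20. The second read 195 ± 19.6 in WT against 198 ± 19.9 in ESAM-KO, which gives -0.30 ± 0.21 on the log2 scale once scaled and 0.02 unscaled. Both ratios were under 2 times their error, and the mean of the probes was 0.04.

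**Figure D2:**
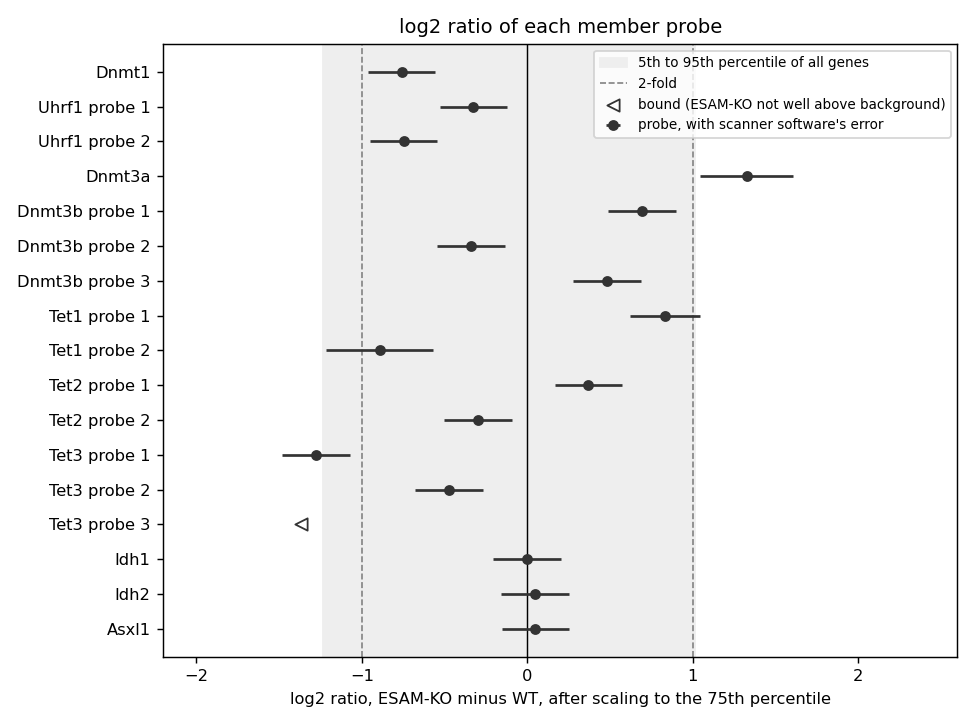
The log2 ratio (ESAM-KO minus WT) of each member probe after scaling (x), with the scanner software's error as bars and dashed lines at 2-fold. Grey shading runs from the 5th to the 95th percentile of the 12615 genes above background on both arrays (-1.24 to 1.02), so bounds are not part of it. Dnmt3a (1.33), the first Tet3 probe (-1.28) and the bound of the third Tet3 probe (-1.37) lie outside the shading, and the probes of Dnmt3b, Tet1 and Tet2 lie on both sides of 0.

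The genes that supply the TET cofactor and Asxl1 differed least. Idh1 read 139 ± 14.2 in WT against 173 ± 17.5 in ESAM-KO, which after scaling is a log2 ratio of -0.00 ± 0.21 and without scaling 0.32. Idh2 read 2620.2 ± 262 in WT against 3372 ± 337 in ESAM-KO, for a log2 ratio of 0.05 ± 0.20. Asxl1 read 700.2 ± 70.1 in WT against 903 ± 90.4 in ESAM-KO, also 0.05 ± 0.20. The higher deposited intensity of these 3 genes in ESAM-KO was thus about that of the array as a whole. Each ratio was smaller than its error, and with each array scaled to its median instead Idh2 and Asxl1 turned to -0.08. A band of 2 errors around the ratio reached from -0.36 to 0.45 for Idh2 and from -0.36 to 0.46 for Asxl1. That error leaves out pool, sort and amplification, so the band sets no limit on the genotype difference that could be detected. No other probe was available for Idh1, Idh2 or Asxl1.

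Against all genes the members did not stand out in number. Among 14136 genes with a ratio, 15.4% were past 2-fold, 6.99% higher and 8.43% lower, and among the 10 members 2 were past it, 1 in each direction. Past 1.5-fold were 5 members (Dnmt1, Dnmt3a, Dnmt3b, Tet1 and Tet3), where 33.2% of all genes were. The members' median log2 ratio was 0.05, beside -0.02 for the 12615 genes above background on both arrays. By the ratio of its probe, Dnmt3a was above 97.6% of those genes. Dnmt3b and Tet1 are not placed among them, since the probes of each differed in direction. At the other end Tet3 was above 4.62% and Dnmt1 above 11.6% of them.

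How far a ratio moves from 0 varies with the signal of the gene on these arrays. In the lowest quartile by mean signal, which holds Dnmt3a, 17.9% of genes were past 2-fold. In the second quartile, with Tet1 and Idh1, it was 19.06%. In the third, with Dnmt1, Tet2, Tet3 and Asxl1, it was 10.8%, and in the highest, with Dnmt3b, Uhrf1 and Idh2, it was 2.63%. Tet3 is therefore past 2-fold in a range of signal where fewer genes are than in that of Dnmt3a. Probes printed as 10 spots, none of them a member probe, show how spots of 1 probe scatter. The median SD of their log2 ratio was 0.24 at intensities under 100, 0.10 from 100 to 1000 and 0.05 above 1000. The 95th percentile of that SD at low signal was 0.57, beside a log2 ratio of 1.33 for the 1 spot of Dnmt3a. An SD is not a limit for a single ratio, and this scatter covers the array only. It leaves out pool, sort and amplification.

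**Figure D3:**
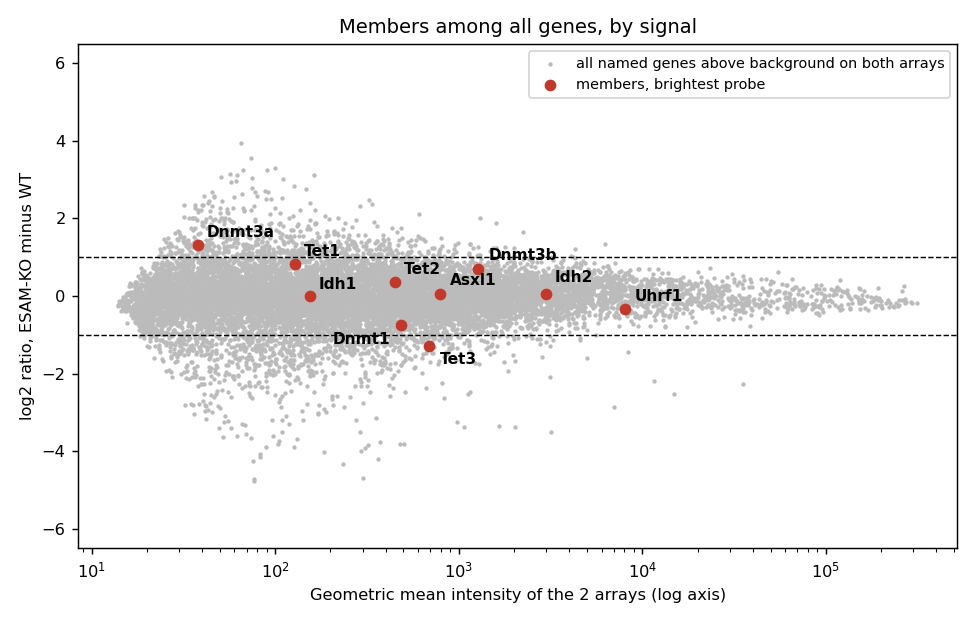
The log2 ratio (y, ESAM-KO minus WT) against the geometric mean intensity of both arrays (x, log axis) for the 12615 named genes above background on both arrays (grey) and the 10 members by their probe of highest signal (red), with dashed lines at 2-fold. The cloud narrows as intensity rises, with Dnmt3a in the dim range and Uhrf1 in the bright range.

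The members' ratios were computed under 12 other ways of processing. The shift stayed within the scanner error of the ratio for 103 of 120 values and passed it for 17. The other filters on dim probes, the signal floor and the outlier spots kept gave every member its reported value. Each member's probe of highest signal was 1 spot above background on both arrays, so these alternatives could not move it. Nor could the mean of the probes move the 5 members with 1 probe. Dnmt3a ran from 0.41 to 1.64, Dnmt3b from 0.28 to 1.01 and Tet2 from 0.04 to 0.69, and each was higher in ESAM-KO under all 12. Apart from the mean of the probes, every alternative used the probe of highest signal. The second probes of Dnmt3b (-0.34) and Tet2 (-0.30) were lower as reported, and the third of Dnmt3b (0.48) was higher. The direction of Dnmt3b and Tet2 thus depends on the probe. Dnmt1 ran from -0.89 to -0.44, Tet3 from -1.41 to -0.96 and Uhrf1 from -0.54 to -0.01, and each was lower under all 12. Tet1 turned from higher to lower with the mean of its probes. The sign of Idh1 depended on the alternative, with 4 higher and 8 lower.

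**Figure D4:**
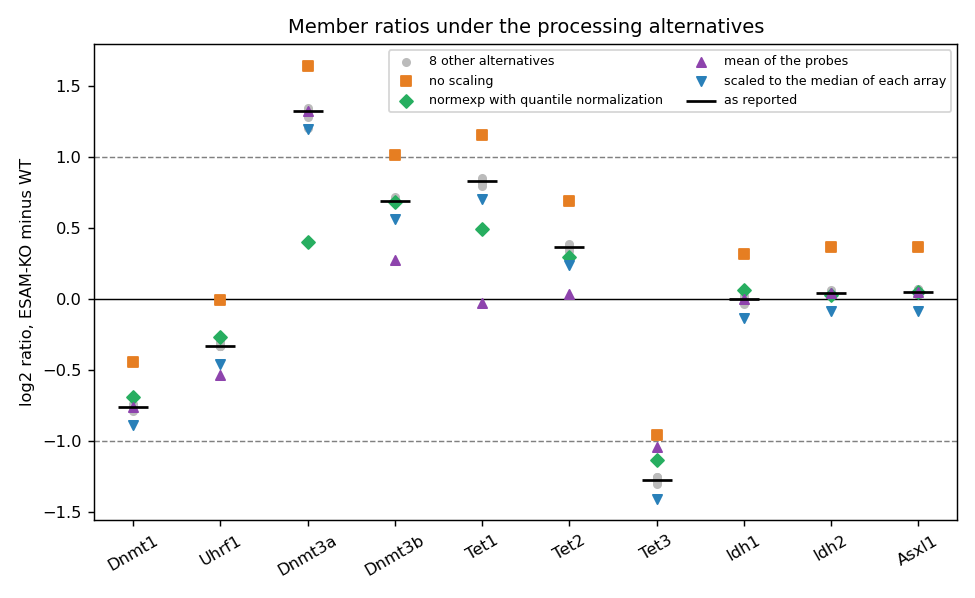
The log2 ratio (y, ESAM-KO minus WT) of each member as reported (bar) and under the 12 processing alternatives, with 4 of them marked and dashed lines at 2-fold. Dnmt3a drops to 0.41 with normexp, Tet1 to -0.03 with the mean of the probes, and every member lies highest without scaling.

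Genes that work with the members were taken as 8 lists of 108 genes, all on the array, of which 91 had a ratio. Past 2-fold were 4 on the higher side and 2 on the lower, 6.59% in all beside 15.4% of all genes, and the median of the 88 above background on both arrays was 0.13. The lists were not matched to all genes by signal, and the share past 2-fold was 17.9% in the lowest signal quartile and 2.63% in the highest. These counts describe the lists only, as no test was made.

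Among partners of maintenance and de novo methylation 9 of 10 genes were measured, with a median log2 ratio of 0.12. Hells, a chromatin remodeller needed for normal DNA methylation, was past 2-fold, from 41.2 in WT to 150.3 in ESAM-KO, or 1.55 ± 0.23 on the log2 scale. With normexp it was at 0.73. Pcna, the replication clamp, read 4571 in WT against 8821 in ESAM-KO, for a log2 ratio of 0.63 ± 0.20. The DNA ligase Lig1, whose methylated form binds UHRF1, was at -0.09 ± 0.20. Dnmt3l, the catalytically inactive cofactor of DNMT3A and DNMT3B in germ cells, did not clear background on either array.

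Readers of methylated DNA had 7 genes with a ratio, a median of -0.35 over the 6 measured on both arrays, and 2 genes lower by more than 2-fold. Mbd1, a methyl-CG binding protein, read 332 in WT against 130 in ESAM-KO, for a log2 ratio of -1.68 ± 0.21, while its other probe was at 0.49 ± 0.24 and the mean of both at -0.59. Zbtb4, a zinc finger protein that binds methylated CG, read 79.0 in WT against 8.73, not well above background, in ESAM-KO, at least 7.49-fold lower. Another Zbtb4 probe was at least 1.06-fold higher. The brightest readers, Mbd2 and Mbd3, were at -0.01 ± 0.20 and -0.26 ± 0.20.

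Tdg, the glycosylase that excises the bases made by TET enzymes, was the 1 gene past 2-fold among 16 of oxidised base and deamination repair. Its probe of highest signal read 255 in WT against 683 in ESAM-KO, for a log2 ratio of 1.11 ± 0.20. Its other probes were also higher, at 1.91 ± 0.25 and, as a bound, at least 6.67-fold. All 3 Tdg probes thus had 1 direction. With the arrays scaled to the median, and with normexp, the first was just under 2-fold at 0.98 and 0.97. The list's median was -0.27 over 14 genes, and the brightest, Ung and Apobec3, were at -0.29 ± 0.20 and 0.20 ± 0.20.

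Of TET partners and CXXC proteins, which bind unmethylated CG, 6 of 7 were measured with 0 past 2-fold and a median of -0.25. The brightest of them, Cxxc1 and Kdm2b, were at -0.31 ± 0.20 and -0.51 ± 0.20. Of the 2-oxoglutarate genes, 25 of 26 were measured, 18 higher and 7 lower (2 lower without scaling), with a median of 0.15. Gls2, a glutaminase, read 27.01 in WT against 110 in ESAM-KO, for a log2 ratio of 1.70 ± 0.27, and 0.66 with normexp. Psat1, the serine pathway enzyme that yields 2-oxoglutarate, read 2655 in WT against 6657 in ESAM-KO, for a log2 ratio of 1.01 ± 0.20. Its other probe was at 0.50 ± 0.20, and Psat1 was past 2-fold under 8 of 12 alternatives. The brightest genes of this list, Mdh2 and Ogdh, were at 0.15 ± 0.20 and 0.57 ± 0.20.

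The 15 genes of the S-adenosylmethionine cycle, which supplies the methyl group, had 0 past 2-fold and a median of 0.21. Mat2b and Ahcy, the brightest, were at -0.23 ± 0.20 and -0.41 ± 0.20. Of the ASXL and BAP1 partners, 8 of 10 had a ratio, 0 past 2-fold, with Bap1 at 0.11 ± 0.20 and Hcfc1 at -0.34 ± 0.20. Germline genes that DNA methylation silences in somatic cells were mostly unseen, as 11 of 16 did not clear background on either array. The 5 that were measured stayed within 2-fold, with a median of -0.07, and the brightest were Taf7l at 0.44 ± 0.20 and Tex101 at 0.35 ± 0.24.

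**Figure D5:**
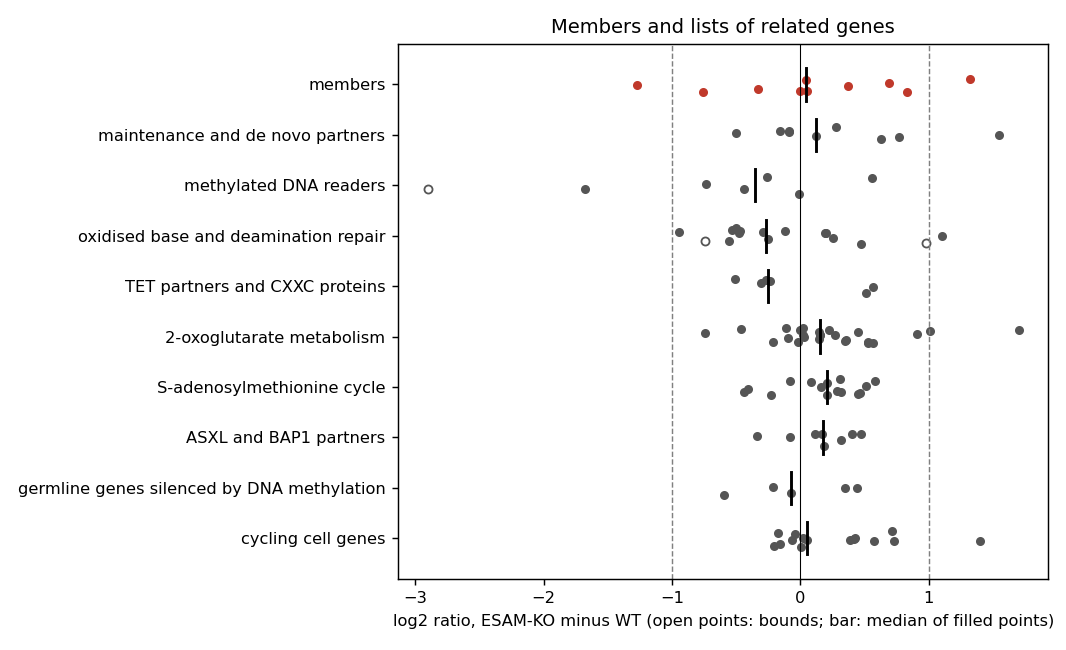
The log2 ratio (x, ESAM-KO minus WT) of the 10 members (red), of 8 lists of related genes and of cycling cell genes (grey), with open points for bounds, a bar for the median of the filled points and dashed lines at 2-fold. Hells, Tdg, Gls2, Psat1 and Tyms lie above 2-fold and Mbd1 and Zbtb4 below it.

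Dnmt1, Uhrf1 and Pcna are made mainly in cells that replicate their DNA, so cycling cell genes were read beside them. All 15 were measured, with a median of 0.05 and 10 higher and 5 lower (0 lower without scaling). Tyms, the thymidylate synthase that 5-FU inhibits, was past 2-fold, from 46.8 in WT to 154 in ESAM-KO, or 1.40 on the log2 scale, and at 0.81 with normexp. The brightest of that list, the replication helicase subunits Mcm6 and Mcm7, were at -0.04 ± 0.20 and -0.07 ± 0.20. The 15 genes ran from -0.21 to 1.40, beside -0.76 for Dnmt1 and -0.33 and -0.75 for the Uhrf1 probes, and the part of cell cycling in those differences was not tested.

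Neutrophil and globin genes differed between the pools by more than any member did. So did some markers of other lists by the probe of highest signal, among them Alas2, Lyz2, Vcam1, Vpreb1, Prss34 and Pecam1. Many other cell type markers did not. Erythroid markers were present on both arrays, 8 of 10 lower and 2 higher after scaling. The transcription factors Gata1 and Klf1 were at -0.34 ± 0.20 and -0.32 ± 0.20, and the receptors Epor and Kit at -0.10 ± 0.20 and -0.36 ± 0.14. The sort marker Eng was at -0.80 ± 0.21, Slamf1 at 0.05 ± 0.39, and Tfrc, the transferrin receptor, was higher at 0.89 ± 0.07. Alas2 (-1.53), Hba-a1 (-2.26) and Hbb-bs (-2.52) were lower by more than 2-fold. Over all 10 erythroid markers the summed deposited intensity was 86885 in WT against 36313 in ESAM-KO, a sum carried mostly by Hba-a1. All 7 neutrophil markers measured (Ly6g was not named on the array) were lower, with log2 ratios from -4.20 to -2.53 and sums of 48692 and 8832. Of the B cell markers Vpreb1 was lower at -2.45 ± 0.22 and Cd79a was at -0.33 ± 0.23. Ebf1 and Igll1, not well above background in ESAM-KO, were at least 3.29-fold and 5.97-fold lower. The log2 bound of Ebf1 was only 1.17 times its error, and that of Igll1 3.97 times. Of the bounds given below, those of Ppbp (0.94), Ms4a2 (0.95), Gp1ba (1.05) and Tek (1.72) were also under 2 times their errors. Those of Gp9 (2.12) and Prss34 (3.94) were over it. All 4 macrophage markers with a ratio were lower after scaling. Vcam1 (-2.88, and -1.03 by its second probe) and Lyz2 (-3.41) were lower by more than 2-fold. Csf1r (-0.16 ± 0.20) and Cd14 (-0.21 ± 0.35) were lower by less than their errors. Adgre1 had no ratio, at 13.6 in WT, not well above background, against 16.4 in ESAM-KO, above it. Cd68 was not named on the array. The macrophage list summed to 6879 and 7391, mostly Csf1r, which after scaling is a log2 ratio of -0.21. Of the basophil and mast cell markers Prss34 was at least 7.54-fold lower and Ms4a2 at least 2.61-fold higher, Mcpt8, Cpa3 and Fcer1a were not well above background, and the sums were 92.9 and 67.3. Among megakaryocyte markers Gp9 and Ppbp were at least 2.06-fold and 2.17-fold lower, Gp1ba at least 2.88-fold higher, Itga2b at -0.59 ± 0.28 and Pf4, which carries the sums of 473 and 792, at 0.53 ± 0.20. Among endothelial markers Pecam1 was lower at -1.99 ± 0.15, Tek at least 2.14-fold higher, Kdr, which carries the sums of 2350 and 2470, at -0.13 ± 0.20, and Cdh5 was not well above background. After scaling the endothelial sum has a log2 ratio of -0.25. The part of these differences in the lower Tet3 and Dnmt1 and the higher Dnmt3a was not tested.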

How the data were processed

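Total RNA of sorted pre CFU-E was amplified (Ovation Pico WTA V2), labelled with Cy3 and hybridised to Agilent SurePrint G3 mouse arrays, 1 per genotype, sharing slide and scan. The authors deposited the output of Feature Extraction 10.10.1.1, in which the intensity of each spot is background-subtracted and not scaled between arrays. Here each array's log2 intensity was set relative to the 75th percentile of its 59305 spots that are not controls. The 254 outlier spots counted in that percentile and were left out of the probe values. A probe counted as above background where over 50% of its spots did. A gene was represented by its probe of highest geometric mean intensity. Accessions were matched without versions to RefSeq (GRCm38.p6), which named 48.9% of 55680 probes. The arrays' design is on mm9, so that assembly gave names and promoter windows only. A gene was called where its ratio or bound passed 2-fold, the criterion of the study's methods.

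The members, lists and processing were chosen with earlier results of these data known. All members, related genes past 2-fold and the 2 brightest genes of each list were to be named. Single markers were chosen for naming with their values known. The value of 1 B cell marker and that list's sum are not reported here. Alternatives were other scalings, normexp (offset 50, on median spot signals, since mean signals are not in the files), the series value table, other filters, outlier spots kept, the mean of probes, a signal floor and thresholds of 1.5-fold and 3-fold. Scripts ran in Python 3.11.15 (pandas 2.3.3, numpy 2.4.6) and R 4.3.3 (limma 3.58.1), and the counting was tested on simulated data. The number of arrays limits the precision.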

Additional observations from a re-analysis of the deposited data

How the results depend on the processing

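No paired analysis was possible because there is 1 array for WT and 1 for ESAM-KO, and no array could be left out for the same reason. Over 12 alternatives, 103 of 120 member values stayed within the scanner error, many of them under alternatives that could not move them. The number of members past 2-fold (2) became 1 with normexp, 5 at a threshold of 1.5-fold and 0 at 3-fold. Without scaling 3 were past it, Dnmt3a, Dnmt3b and Tet1, all higher. The members' median (0.05) was 0.37 without scaling and -0.08 with the median of each array. The median of the genes above background on both arrays moved by 0.32 and by -0.13 under the same alternatives. The number of all genes past 2-fold (2179) was 712 with normexp, 4108 with no filter on dim probes, 4694 at 1.5-fold and 821 at 3-fold. Of the related genes 6 were past 2-fold, 2 with normexp and 13 with no filter. Normexp adds an offset that draws ratios of dim probes such as that of Dnmt3a towards 0, and the causes of the other shifts were not tested. Signal over background limits Dnmt3a, the second Tet1 probe and the third Tet3 probe most.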
